A study of Bos taurus with 15 samples.

Results

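Carriers of glucose and amino acids were followed in cultured bovine endometrial epithelial cells that had been kept with or without embryos. The members were every row of the expression table whose gene symbol was SLC1A, SLC2A, SLC3A, SLC5A, SLC7A, SLC38A or SLC43A followed by a number, which gave 58 of 19994 rows and 57 symbols, because SLC2A5 stood on 2 rows. Of these, 35 passed the filter on low values and were tested. Another 17 were under it, and 6 were listed at 0 in every library. Symbols alone chose the rows, so carriers of other substrates came with them, such as SLC5A5 for iodide, SLC5A6 for biotin and pantothenate, SLC5A7 for choline and SLC43A3 for purine nucleobases.

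The RNA came from bovine endometrial epithelial cells, which are primary cells scraped from the luminal surface of the uteri of beef cows after death. Cells of 4 uteri had been pooled, frozen, thawed at passage 3 and grown as monolayers in a multiwell plate. In the contact group, morulae produced in vitro and 5.5 days old lay directly on the monolayer in groups of 15 ± 1. In the no contact group, morulae of the same kind and number were held in the transwell, away from the monolayer. Control wells held the monolayer without embryos. All groups shared the cell pool, a transwell insert, synthetic oviductal fluid medium with fetal bovine serum, and a culture of 48 h. Each group had 5 libraries, named here by the number in the library title, with the title's prefix for controls. With 1 pool of cells, p-values measured the spread between these cultures, which may be technical.

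Glucose crosses the cell membrane by facilitated diffusion through the SLC2A proteins or together with sodium through some SLC5A proteins. Amino acids enter by sodium-coupled uptake through SLC1A and SLC38A members and are then exchanged through SLC7A light chains, most of which need a heavy chain, SLC3A1 or SLC3A2, to reach the membrane. The uterine epithelium secretes fluid that feeds the embryo before it attaches, and in sheep this fluid gains glucose and amino acids in early pregnancy.

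The 15 libraries held between 4195091 and 19792557 reads, and 2 contact libraries, 97 and 108, were shallower than all others, with 4195091 and 6104652 reads. The library numbers were not evenly spaced: they ran from 24 to 30, from 83 to 90 and from BEEC.103 to 110, and 97 stood by itself, which made 4 runs. What a run stands for was not stated in the labels. The runs 24 to 30, 83 to 90 and BEEC.103 to 110 held all 3 groups and gave differences within a run. Library 97, a contact library, had no partner. Run 24 to 30 held 1 library of each group, and BEEC.103 to 110 held 2 of each. Run 83 to 90 held 2 control, 2 no contact and 1 contact library. Differences within a run thus rested on 1 or 2 libraries per group. The epithelial label was checked on markers: KRT8 was at 29337 to 40317 normalized counts over all libraries and KRT19 and CDH1 were present, but EPCAM reached at most 3.36 and FOXA2 was listed at 0. Of the 14 genes of the epithelial list, 8 passed the filter on low values. Genes of stromal cells were abundant, with COL1A1 at 82259 to 116621. In control libraries the stromal list summed to 364011 to 388245 normalized counts and the epithelial list to 50920 to 67878. No gene of the epithelial list was called in any comparison by limma, edgeR or DESeq2, over 8 genes tested. None of them had an unadjusted limma p under 0.05. Of 11 stromal genes tested, limma and edgeR called 1 higher in contact than in control, LUM, where limma called 7.17% of all genes higher. DESeq2 called 2 there, LUM and DCN, and 1 in contact against no contact, LUM. Its shares of all genes higher were 7.87% and 4.55%. Because these are bulk samples, fewer cells of a type and less RNA per cell cannot be told apart.

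Contact with morulae was compared with cells alone to ask what embryos lying on the monolayer do to its transcripts. The glucose carrier SLC2A1 was higher in contact, and SLC7A8, SLC1A7 and SLC5A1 were lower. These 4 were 11.4% of the 35 members tested, against 13.0% of all 12559 genes tested, so the carriers were called about as often as any gene. By limma at an adjusted p under 0.05, 1 member was higher, where the background was 7.17% of all genes, and 3 were lower, where it was 5.78%. At an unadjusted p under 0.05 there were 10 members, 28.6%, against 26.3% of all genes. Groups did not overlap for 1 member on the higher side, SLC2A1, where 7.45% of all genes had this property, and for 1 on the lower side, SLC7A8, where 6.16% had it. The median log2 fold change of the members was -0.12, and that of all tested genes was -0.01. For 29 of the 35 the fold change was under 0.5 on the log2 scale in either direction, and for 30 the 95% interval lay within 1 log2 unit of 0. The other comparisons each used one of these same groups, so results across comparisons were not independent.

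SLC2A1, also called GLUT1, is the facilitative glucose carrier that supplies basal uptake in most cells. Its normalized counts in control libraries BEEC.24, BEEC.83, BEEC.84, BEEC.103 and BEEC.104 were 374.6, 390.4, 397.6, 364.0 and 382.2. No contact libraries 30, 89, 90, 109 and 110 had 410.7, 457.5, 443.0, 352.6 and 346.4. In contact libraries 28, 87, 97, 107 and 108 the values were 628.5, 607.9, 557.8, 497.9 and 441.0. Every contact library lay above every control library, while the lowest contact library, 108, fell below 2 no contact libraries, 89 and 90. The group means were 381.8 ± 13.2 for control, 402.0 ± 50.9 for no contact and 546.6 ± 77.6 for contact (SD, n = 5 each). Contact exceeded control by 0.51 ± 0.10 on the log2 scale (SE), a 1.42-fold difference with a 95% interval of 0.30 to 0.71 in log2 units (limma adjusted p = 0.00118). Contact also exceeded no contact, by 0.44 ± 0.10 (limma adjusted p = 0.00813). Between no contact and control the difference was 0.07, with a 95% interval of -0.14 to 0.27 (limma adjusted p = 0.895).

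Within runs of library numbers, SLC2A1 was higher in contact than in control by 0.75 in 24 to 30, 0.62 in 83 to 90 and 0.33 in BEEC.103 to 110, all in log2 units. Contact held 1 library in 24 to 30 and in 83 to 90, and 2 in BEEC.103 to 110. Against no contact, the same runs gave 0.61, 0.43 and 0.42. No contact minus control was 0.13, 0.19 and -0.09, so its sign was not the same in all 3 runs. Both calls of SLC2A1 held in all 25 alternative fits, with a highest adjusted p of 0.00561 by limma against control and 0.0323 against no contact.

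Markers of other cells were read beside this result. The embryo and trophoblast list had 5 genes tested, and limma, edgeR and DESeq2 called none in any of the 3 comparisons, nor was any limma p under 0.05 without adjustment. Its summed level was 4793 to 5691 normalized counts in control libraries, 4565 to 5433 in no contact libraries and 4483 to 5519 in contact libraries, with NANOG listed at 0 and POU5F1 at most 3.36. Control wells held no embryos, so the cells themselves gave counts on this list. The lack of calls thus cannot tell whether embryo RNA was present in contact wells. IFNT, the trophoblast interferon, read 18.8 to 89.3 over all libraries, controls included, and did not pass the test. In the list of interferon response genes, by contrast, limma called all 19 genes tested higher in contact and in no contact than in control. It called 18 higher in contact than in no contact. Counts by edgeR and DESeq2 were the same, except that edgeR called 18 in no contact against control. For all genes, the limma shares called higher were 7.17% in contact against control, 1.48% in no contact against control and 3.73% in contact against no contact. The sum of that list ran from 7029 to 8028 in control libraries, 69477 to 86259 in no contact libraries and 140870 to 187516 in contact libraries. Its part in the SLC2A1 result was not tested. Of 8 endothelial and muscle genes tested, limma and edgeR called 1 lower in contact than in control, TAGLN, where limma called 5.78% of all genes lower. DESeq2 called 2, TAGLN and ACTA2, where its share of all genes was 6.56%. At an unadjusted limma p under 0.05, 3 genes of the list were lower, where 26.3% of all genes passed in either direction. That list's sum was 8681 to 13861 in control libraries, 7135 to 12239 in no contact libraries and 7605 to 8735 in contact libraries. CD14 was 1 of 2 leukocyte genes tested and was lower in contact than in either other group. Over all genes, limma called 5.78% lower in contact against control and 1.82% lower against no contact. PTPRC, the leukocyte common antigen, was at most 0.969. The sum of the leukocyte list was 227.0 to 599.6 in control libraries, 209.8 to 425.1 in no contact libraries and 174.5 to 556.0 in contact libraries, and the part of these markers in the carrier results was not tested.

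**Figure D1:**
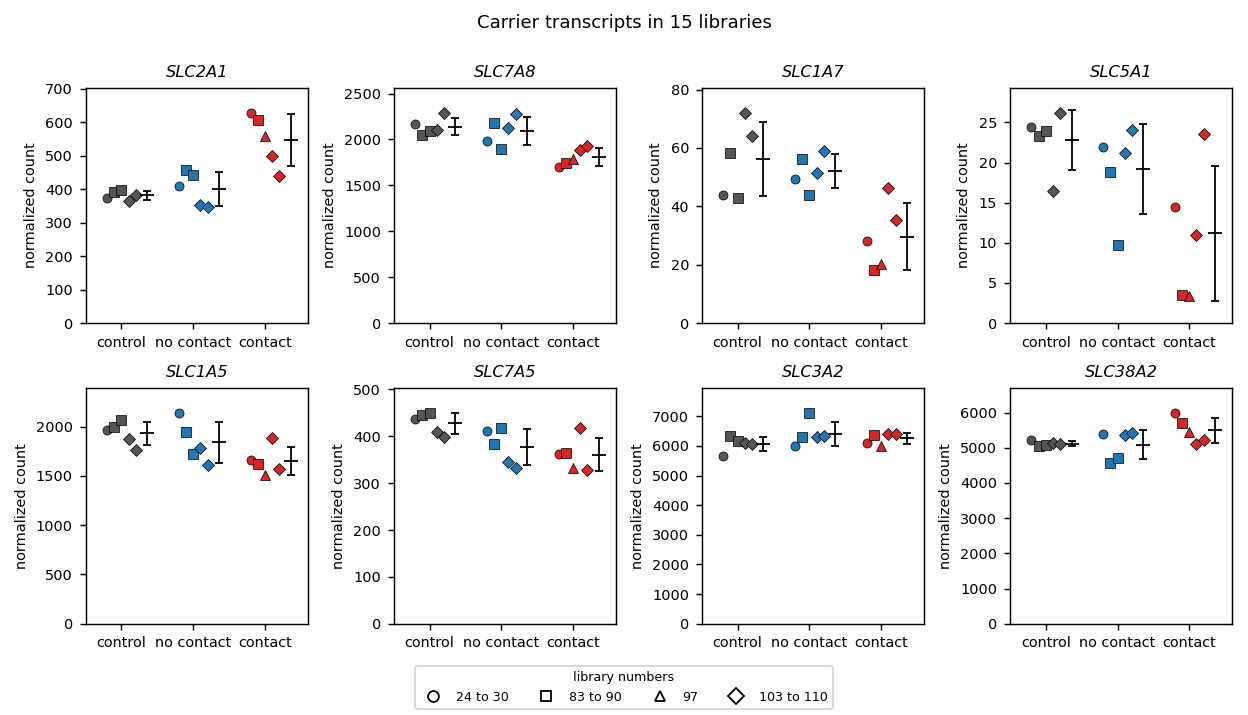
Normalized counts (vertical axis, linear from 0) of 8 carriers in each of the 15 libraries, by group on the horizontal axis; the marker shape gives the run of library numbers, and the bar beside each group is the mean with its SD (n = 5). The 5 contact libraries of SLC2A1 sit between 441.0 and 628.5, above all control libraries, whereas those of SLC5A1 spread from 3.36 to 23.6 and overlap both other groups.

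The other facilitative hexose carriers did not pass the test in contact against control. SLC2A3, the high-affinity carrier GLUT3, differed by -0.08, with a 95% interval of -0.27 to 0.12 (limma adjusted p = 0.657). SLC2A6, a hexose carrier of lysosomal membranes, had a mean of 110.0 ± 20.7 normalized counts in control and 77.5 ± 18.9 in contact, a difference of -0.51 (limma adjusted p = 0.086). SLC2A10, which is mutated in human arterial tortuosity syndrome, had 74.2 ± 9.93 and 54.4 ± 15.2, a difference of -0.47 (limma adjusted p = 0.0791). For both genes the groups overlapped. SLC2A10 passed without contact library 28, at 0.0245, and SLC2A6 without control library BEEC.104, at 0.0396, and with the 2 groups only, at 0.0412. SLC2A8, an intracellular carrier, differed by 0.12, SLC2A9, a urate carrier, by -0.08, SLC2A11 by -0.23, SLC2A12 by 0.04 and SLC2A13, a proton-coupled carrier of myo-inositol, by -0.18. Of the 9 SLC2A genes tested, 3 had positive and 6 negative fold changes.

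Among sodium-coupled carriers, SLC5A1, known as SGLT1 and the main route of glucose uptake in the intestine, was lower in contact than in control. It was near the low end of what was counted. Control libraries BEEC.24, BEEC.83, BEEC.84, BEEC.103 and BEEC.104 had 24.4, 23.3, 23.9, 16.4 and 26.2 normalized counts. In no contact libraries 30, 89, 90, 109 and 110 it had 21.9, 18.8, 9.69, 21.2 and 24.1. Contact libraries 28, 87, 97, 107 and 108 had 14.5, 3.46, 3.36, 10.98 and 23.6. These contact values rested on 18, 4, 1, 15 and 10 reads. Libraries 87 and 97 were far below all others, and library 108 was as high as the controls. The log2 fold change was -1.27 ± 0.39 (limma adjusted p = 0.0363).

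The call of SLC5A1 against control depended on single libraries. The limma adjusted p rose to 0.108 without contact library 87 and to 0.106 without 97. Without control library BEEC.104, BEEC.24, BEEC.83 or BEEC.84 it was 0.0713, 0.076, 0.0775 or 0.0735. With no filter on low values it was 0.0549. Within runs, contact minus control was -0.72 in 24 to 30, -2.46 in 83 to 90 and -0.34 in BEEC.103 to 110. The value for 83 to 90 rested on contact library 87 alone, with 4 reads. Contact minus no contact was -0.99 (limma adjusted p = 0.161) and was called only without contact library 108, at 0.0348. No contact minus control was -0.29 (limma adjusted p = 0.884).

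Of the other 3 SLC5A genes tested, none was called in any comparison by limma, edgeR or DESeq2, and 1, SLC5A6 in contact against control, had an unadjusted limma p under 0.05. SLC5A2, the kidney's glucose carrier SGLT2, differed by -0.13 between contact and control. SLC5A10, a carrier of mannose and fructose, differed by 0.01. SLC5A6, the sodium-dependent multivitamin carrier, averaged 203.1 ± 11.9 normalized counts in control libraries, 214.6 ± 19.9 in no contact libraries and 240.9 ± 22.3 in contact libraries. Its difference between contact and control, 0.24, missed the threshold (limma adjusted p = 0.0792). It passed with the library-number run as a block, at an adjusted p of 0.0206, when values were scaled to the library total, at 0.0308, and without contact library 97, at 0.0465.

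Carriers of acidic and neutral amino acids in the SLC1A family had 3 genes tested. SLC1A7, the glutamate carrier EAAT5 known best from the retina, was lower in contact. Control libraries BEEC.24, BEEC.83, BEEC.84, BEEC.103 and BEEC.104 had 44.0, 58.1, 42.8, 72.0 and 64.1 normalized counts. The no contact libraries 30, 89, 90, 109 and 110 had 49.5, 56.3, 44.0, 51.3 and 59.0. The contact libraries 28, 87, 97, 107 and 108 had 28.1, 18.2, 20.2, 46.1 and 35.4, from 35, 21, 6, 63 and 15 reads. Only contact library 107 reached into the range of the other groups. The means were 56.2 ± 12.7, 52.0 ± 5.88 and 29.6 ± 11.5 (SD, n = 5 each). Contact minus control was -0.95 ± 0.22 (limma adjusted p = 0.005) and contact minus no contact -0.87 ± 0.22 (limma adjusted p = 0.0202).

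The first of these SLC1A7 calls held in all 25 alternative fits. The second was lost without no contact library 110, at a limma adjusted p of 0.0516, and without 89, at 0.0545. It was also lost without contact library 87, at 0.0634, without 97, at 0.0665, and without 97 and 108 together, at 0.0779. By run, in the order 24 to 30, 83 to 90 and BEEC.103 to 110, contact minus control was -0.63, -1.41 and -0.74.

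SLC1A5, or ASCT2, which takes up glutamine and other neutral amino acids, was just outside the threshold. In control libraries BEEC.24, BEEC.83, BEEC.84, BEEC.103 and BEEC.104 it had 1964, 2000.4, 2064, 1873 and 1761 normalized counts. In no contact libraries 30, 89, 90, 109 and 110 it had 2136, 1947, 1720.4, 1784 and 1614. In contact libraries 28, 87, 97, 107 and 108 it had 1658, 1624, 1509, 1887 and 1571. Contact library 107 lay among the controls and the other 4 below them. The difference was -0.23 ± 0.08 (limma adjusted p = 0.0537), against -0.15 relative to no contact (limma adjusted p = 0.275). Between no contact and control it was -0.08 (limma adjusted p = 0.846). Contact against control passed when the fit held these 2 groups only, at 0.0165. It also passed without no contact library 110, 30 or 90, at 0.0464, 0.0371 and 0.0348, without contact library 107, at 0.0209, and without control library BEEC.104, at 0.0389. SLC1A1, a carrier of glutamate and cysteine, had 4141 ± 228.4 in control and 4176 ± 349.4 in contact, a difference of 0.01 with a 95% interval of -0.13 to 0.15 (limma adjusted p = 0.945).

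All 8 SLC7A genes tested had negative log2 fold changes between contact and control (median -0.24), where 52.4% of all tested genes were negative. In no contact against control, 7 of the 8 were negative (median -0.18), where 53.5% of all tested genes were. Both comparisons shared the same control libraries. In contact against no contact, 5 were negative (median -0.10), where 48.1% of all tested genes were. Of the 8, 1 passed the test in contact against control. That one was SLC7A8, or LAT2, which exchanges neutral amino acids as the partner of SLC3A2. Control libraries BEEC.24, BEEC.83, BEEC.84, BEEC.103 and BEEC.104 had 2165, 2053, 2086, 2101 and 2290.2 normalized counts. No contact libraries 30, 89, 90, 109 and 110 had 1988, 2178, 1898, 2128 and 2282. In contact libraries 28, 87, 97, 107 and 108 the counts were 1703, 1747, 1784, 1889 and 1929. Every contact library lay below every control library, and only contact library 108 lay above the lowest no contact library. The means were 2139 ± 93.8, 2095 ± 152.6 and 1811 ± 95.6 (SD, n = 5 each).

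The fall of SLC7A8 in contact against control was small, -0.24 ± 0.06, or 0.846-fold (limma adjusted p = 0.0123). It was not called when values were scaled to the library total, at an adjusted p of 0.0618. Relative to no contact the difference was -0.21 (limma adjusted p = 0.0526). That comparison passed with DESeq2, at 0.0172, with the run as a block, at 0.0195, and with limma without no contact library 90, at 0.0153, or without contact library 108, at 0.0458. Within runs, contact minus control was -0.35, -0.24 and -0.20 and contact minus no contact -0.22, -0.22 and -0.21. No contact minus control was -0.03 (limma adjusted p = 0.929).

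SLC7A5, or LAT1, imports leucine and other large neutral amino acids. In control libraries BEEC.24, BEEC.83, BEEC.84, BEEC.103 and BEEC.104 its normalized counts were 436.5, 444.6, 448.9, 408.7 and 399.3. No contact libraries 30, 89, 90, 109 and 110 had 411.5, 384.1, 417.6, 345.9 and 331.4, and contact libraries 28, 87, 97, 107 and 108 had 362.5, 364.9, 332.7, 417.3 and 327.8. As for SLC1A5, contact library 107 lay among the controls and the other 4 below them. The difference between contact and control was -0.25 ± 0.08 (limma adjusted p = 0.0554). It passed with these 2 groups only, at 0.0291, without no contact library 90, at 0.0353, and without contact library 107, at 0.0215. No contact minus control was -0.18 (limma adjusted p = 0.564) and contact minus no contact -0.07 (limma adjusted p = 0.706).

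SLC3A2, also called 4F2hc or CD98hc, is the heavy chain of both SLC7A5 and SLC7A8. Control libraries BEEC.24, BEEC.83, BEEC.84, BEEC.103 and BEEC.104 had 5671, 6322, 6149.8, 6109 and 6054 normalized counts. No contact libraries 30, 89, 90, 109 and 110 had 6010.0, 6308, 7097, 6309 and 6348. Contact libraries 28, 87, 97, 107 and 108 had 6113, 6365, 6009, 6391 and 6398. The 3 groups overlapped, with control library BEEC.24 the lowest value and no contact library 90 the highest. Contact minus control was 0.05, with a 95% interval of -0.08 to 0.17 (limma adjusted p = 0.68). SLC3A1, the heavy chain that pairs with SLC7A9, averaged 565.1 ± 39.3 in control libraries, 577.9 ± 46.6 in no contact libraries and 529.3 ± 34.8 in contact libraries, with a difference of -0.09 between contact and control (limma adjusted p = 0.449). SLC7A9 itself was under the filter, at most 1.81 in any library.

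Among the other SLC7A genes, SLC7A11, the cystine and glutamate exchanger, had the most negative fold change of its family, -0.75, and missed the threshold (limma adjusted p = 0.17). Its contact libraries ran from 6.72 to 21.2 and its control libraries from 15.4 to 27.4 normalized counts. SLC7A1, the arginine carrier CAT1, differed by -0.08. SLC7A2, the second cationic carrier CAT2, differed by -0.38, and SLC7A4, which has no settled substrate, by -0.64. SLC7A6 and SLC7A7, light chains that exchange cationic for neutral amino acids, differed by -0.15 and -0.14.

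The SLC38A family takes up glutamine, alanine and similar amino acids with sodium, and some of its members sit in lysosomes. None of its 7 genes tested was called in contact against control by limma, edgeR or DESeq2, and none had an unadjusted limma p under 0.05. SLC38A2, or SNAT2, which is induced in many cells when amino acids are scarce, had 5217, 5042, 5086, 5129 and 5107 normalized counts in control libraries BEEC.24, BEEC.83, BEEC.84, BEEC.103 and BEEC.104. In contact libraries 28, 87, 97, 107 and 108 it had 5976, 5710.1, 5457, 5105 and 5207. The control libraries were close together, with a coefficient of variation of 1.27%, and the contact libraries overlapped them. The difference was 0.10, with a 95% interval of -0.04 to 0.24 (limma adjusted p = 0.36). SLC38A9, the lysosomal arginine sensor, differed by 0.12, SLC38A6 by 0.10, SLC38A7, which exports glutamine and asparagine from lysosomes, by 0.03, and SLC38A10 by -0.06. SLC38A1 differed by -0.12 and SLC38A3, best known from liver and kidney, by -0.48. In SLC43A, SLC43A2, the facilitative carrier LAT4, differed by -0.06 and SLC43A3 by -0.15.

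**Figure D2:**
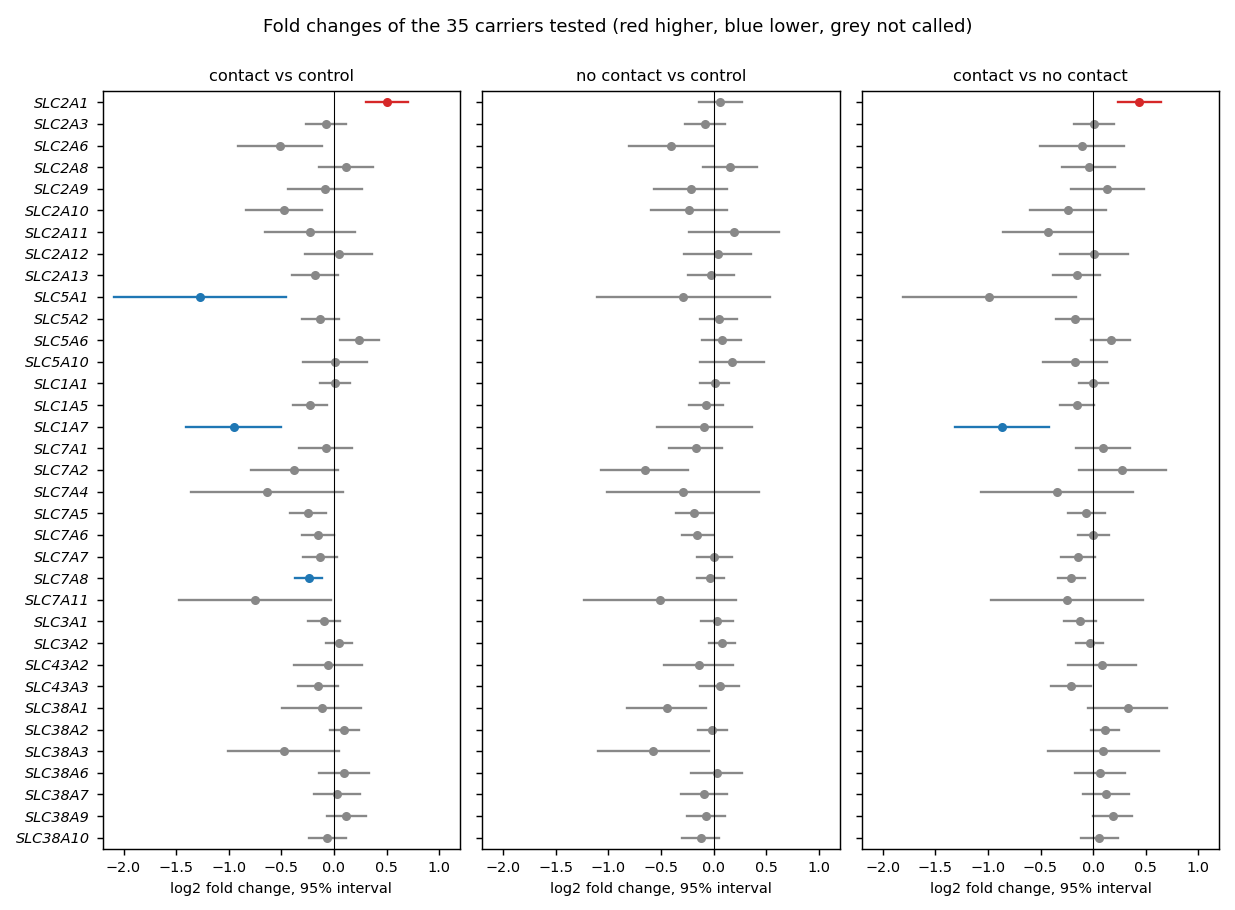
Log2 fold changes (horizontal axis) of the 35 carriers tested, with 95% intervals from the limma fit, in 3 panels for contact against control, no contact against control and contact against no contact. Coloured points passed an adjusted p of 0.05, and SLC2A1 is the one red point in the outer panels, at 0.51 and 0.44.

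No contact was compared with control to ask what embryos do to the cells without touching them. No carrier passed the test by limma, edgeR or DESeq2, where the limma background was 1.48% of all genes higher and 0.111% lower. At an unadjusted p under 0.05 there were 6 members, all lower, which is 17.1% of the 35 against 8.39% of all genes. They were SLC7A2, SLC38A1, SLC38A3, SLC7A5, SLC2A6 and SLC7A6. The median fold change was -0.08, against -0.01 for all tested genes, and the 95% interval lay within 1 log2 unit of 0 for 30 of the 35. Of the members, 1 had no overlap between groups on the lower side, SLC7A2, where the background was 0.971%, and 1 on the higher side, SLC5A10, where it was 1.98%.

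SLC7A2 had 24.4, 28.1, 23.9, 30.5 and 25.3 normalized counts in control libraries BEEC.24, BEEC.83, BEEC.84, BEEC.103 and BEEC.104. It had 17.9, 18.8, 11.2, 15.6 and 19.9 in no contact libraries 30, 89, 90, 109 and 110. All no contact libraries lay below all control libraries, with library 90 the lowest. The difference was -0.65 ± 0.20 (limma adjusted p = 0.165). For SLC5A10 the no contact libraries ran from 45.7 to 52.8 and the control libraries from 40.65 to 44.63, a difference of 0.18 (limma adjusted p = 0.783). SLC38A1, the glutamine carrier SNAT1, had 402.6, 337.1, 178.2, 468.6 and 361.3 in the no contact libraries in the same order. Library 90 stood well below the others. The control range was 415.6 to 493.3, and the difference was -0.45 (limma adjusted p = 0.491), or -0.22 without library 90.

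Contact was compared with no contact to ask what differs when embryos lie on the cells rather than in the transwell. Touch and distance from the embryos changed together, so they cannot be told apart. SLC2A1 was higher and SLC1A7 lower by limma, which together were 5.71% of the 35 members against 5.56% of all genes. The background was 3.73% of genes higher and 1.82% lower. At an unadjusted p under 0.05 there were 6 members, 17.1%, against 19.7% of all genes. No member had groups without overlap, where 3.44% of all genes did on the higher side and 2.00% on the lower. The median fold change of the members was -0.03, against 0.01 for all tested genes. All 7 SLC38A genes tested had positive fold changes, from 0.06 for SLC38A10 to 0.33 for SLC38A1, where 48.1% of all tested genes were negative. The signs were not stable: SLC38A10 turned to -0.02 without no contact library 90, SLC38A3 to -0.02 without no contact library 89 and SLC38A6 to -0.01 with the run as a block. Of the 7, limma, edgeR and DESeq2 called none, with 1, SLC38A9, at an unadjusted limma p under 0.05 (limma adjusted p = 0.247). Without no contact library 90, the SLC38A1 difference was 0.10. SLC3A2 differed by -0.03 (limma adjusted p = 0.787), a sign that turned when values were scaled to the library total.

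**Figure D3:**
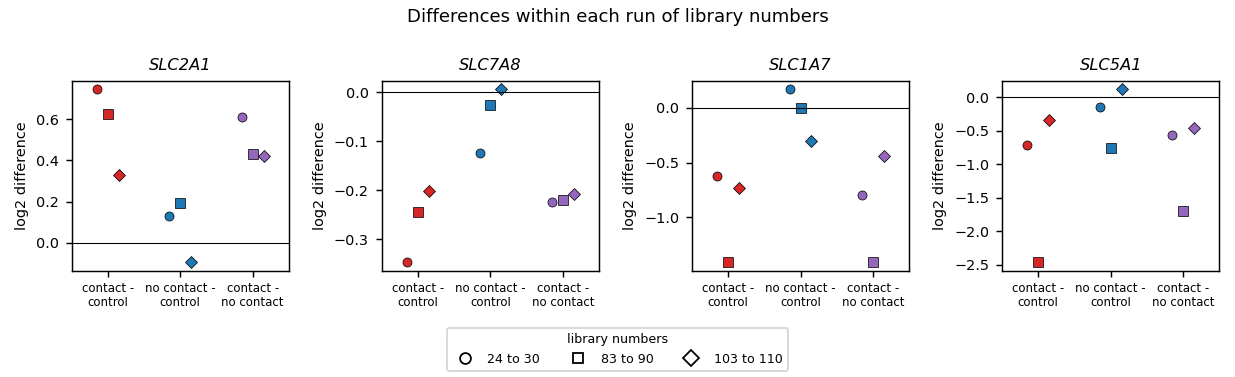
Log2 differences (vertical axis) between group means by run, for the 3 comparisons of the 4 carriers called. Marker shapes give the runs 24 to 30, 83 to 90 and BEEC.103 to 110, where a mean held 1 or 2 libraries. SLC2A1 contact minus control is positive in each run, at 0.75, 0.62 and 0.33, and SLC5A1 spreads from -2.46 to -0.34.

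The number of members called moved with the libraries used. In contact against control, 5 members were lower without no contact library 90 or without contact library 107, with SLC1A5 and SLC7A5 added to the 3. With the 2 groups only, 6 were lower, SLC2A6 being the other one. Without contact library 97, 2 were higher, SLC2A1 and SLC5A6. In contact against no contact, none was lower without no contact library 110 or 89 or contact library 87 or 97, and 3 were lower without contact library 108. The shares of all genes called in these fits are not given here. Whether the carriers moved more than other genes is thus not shown. On the recovered reads, edgeR and DESeq2 each called 1 member higher, SLC2A1, and 3 lower in contact against control, where edgeR called 7.37% of all genes higher and 5.5% lower and DESeq2 7.87% and 6.56%. In no contact against control both called no member, with 1.49% of all genes higher and 0.127% lower by edgeR and 1.7% and 0.263% by DESeq2. In contact against no contact both called 1 member higher, and edgeR called 1 lower and DESeq2 2, where the background was 3.78% and 1.76% by edgeR and 4.55% and 2.66% by DESeq2. At its own FDR under 0.05, the authors' deposited table of comparisons listed 1 member higher and 3 lower in contact against control. It listed none in no contact against control, and 1 higher and 2 lower in contact against no contact. In that order, 39, 46 and 38 members had an FDR there, which is not the set of members tested here. The share of all genes under that FDR is not given here. These counts thus do not show whether members were listed more often than other genes.

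Spread among libraries differed between groups. The coefficient of variation over the 35 members had a median of 7.61% for control, 12.7% for no contact and 11.3% for contact, and the highest single value was 75.6%, for SLC5A1 in contact. No contact library 90 was the lowest of its group in 17 of the 35 members and the highest in 6. SLC43A2 read 2020.0 to 2262 in libraries BEEC.103 to 110 and 1251 to 1780.5 in the other 9 libraries. It was the only one of the 35 members for which this run did not overlap the rest, where 1.34% of all tested genes had the same property.

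**Figure D4:**
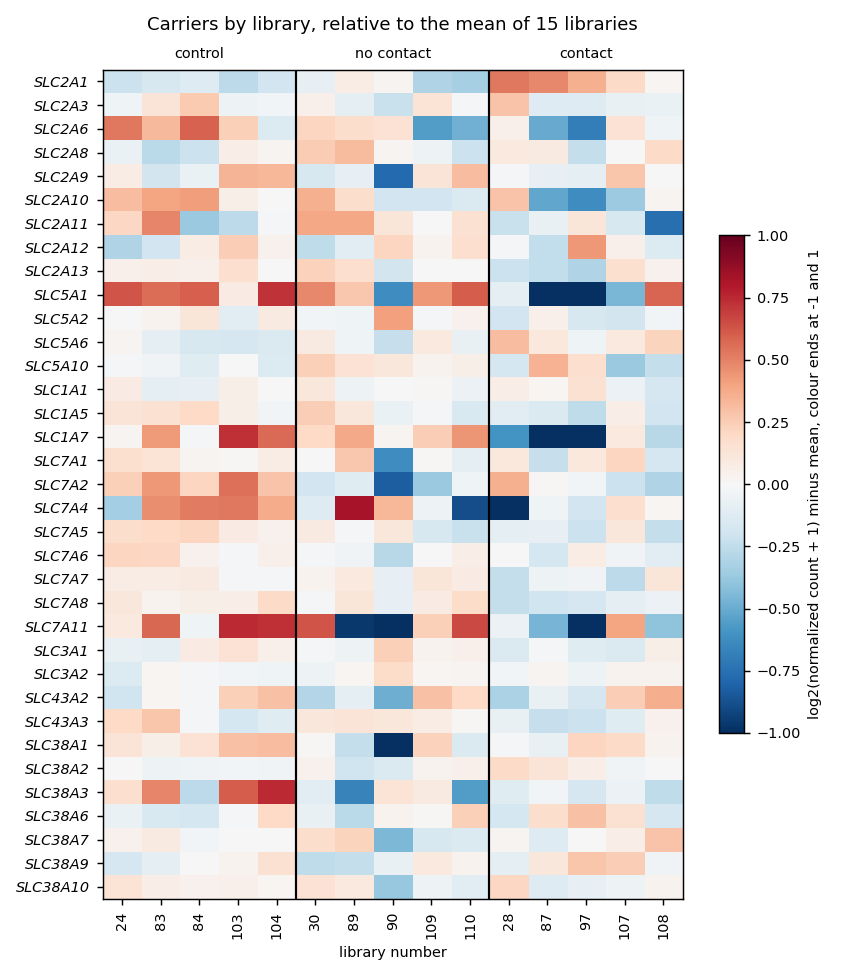
Values of the 35 carriers tested (rows, by family) in the 15 libraries (columns, by group), as log2(normalized count + 1) minus the mean of the row, with colours ending at -1 and 1. SLC2A1 is above its mean in the contact libraries, SLC5A1 and SLC1A7 reach the blue end in contact libraries 87 and 97, and no contact library 90 has more low cells than the rest of its group.

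The remaining 23 members had few reads or none. Listed at 0 in every library were SLC1A4, SLC1A6, SLC38A4, SLC38A11, SLC5A7 and SLC5A12. Over all libraries together, 0 of 237181786 reads allows up to 0.0126 RPM, which covers counting error only. SLC2A2, the liver and islet carrier GLUT2, reached at most 1.66 normalized counts, SLC2A4, the insulin-responsive carrier GLUT4, 2.36, and the 2 rows of SLC2A5, the fructose carrier, 1.63 and 2.59. SLC5A4 reached 0.854, SLC5A5 4.72, SLC5A8 18.9, SLC5A9 4.72 and SLC5A11 13.0. SLC1A2 and SLC1A3, glutamate carriers of glia, reached 1.63 and 3.66. SLC7A3 reached 6.72, SLC7A10 2.71 and SLC7A14 8.79, and SLC38A5 and SLC38A8 reached 3.46 and 10.8.

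In the RefSeq table of the assembly ARS-UCD2.0, some members lay side by side. SLC38A2 lay between SLC38A4 and SLC38A1 with no other protein-coding gene between them, and SLC5A1 lay next to SLC5A4. In both places a gene that was tested adjoined one with no or almost no reads, since SLC38A4 was listed at 0 and SLC5A4 reached 0.854 normalized counts. Of the 35 members tested, 8 overlapped another protein-coding gene in that table, namely SLC1A1, SLC2A9, SLC2A12, SLC3A1, SLC5A2, SLC5A6, SLC5A10 and SLC7A6. The strand setting of the counting was not given in the sources used here, so the values of these 8 are uncertain.

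Other genes that act with these carriers were read from lists. In contact against control, 12 other amino acid carriers were tested. Of these, 5 had an unadjusted limma p under 0.05, all lower, where 26.3% of all genes passed that mark. After adjustment limma called 1, where 5.78% of all genes were lower and 7.17% higher, so the count of calls was near the background. The gene called was SLC17A7, a vesicular glutamate carrier, at -0.70 (limma adjusted p = 0.0132, and 0.0579 without contact libraries 97 and 108). Of 15 carriers of lactate and other sugar compounds tested, 1 was higher and 1 lower by limma, against the same background. The higher one was SLC37A1, a glucose 6-phosphate carrier, at 52.8 ± 7.28 normalized counts in control and 77.8 ± 11.1 in contact, a log2 difference of 0.55 (limma adjusted p = 0.00957). The lower one was SLC37A3, at -0.20, which lost its call in 6 of the 15 fits that left out 1 library, with limma adjusted p from 0.0509 to 0.099 in those. Neither list had a gene called by limma, edgeR or DESeq2 in the other 2 comparisons. At an unadjusted limma p under 0.05 there were 1 and 3 other amino acid carriers, all lower, in no contact against control and contact against no contact, where 8.39% and 19.7% of all genes passed that mark. Of the lactate and sugar carriers there were 1, lower, and 2, higher. In contact against control these carriers had 3 higher and 2 lower at that mark, against 26.3% of all genes.

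Sensing of amino acids runs through mTORC1, the kinase complex that couples their supply to growth. Of 37 genes of this list tested, 2 were lower and none higher in contact against control by limma, edgeR and DESeq2. Over all genes limma called 5.78% lower and 7.17% higher. At an unadjusted limma p under 0.05, 1 gene of the list was higher and 4 were lower, where 26.3% of all genes passed that mark. TSC2, a brake on mTORC1, differed by -0.31 (limma adjusted p = 0.0137), from 2530 ± 79.5 normalized counts in control to 2043 ± 204.7 in contact, and lost its call without contact libraries 97 and 108, at 0.0856. The other, SESN1, lost its call in 10 of the 15 fits that left out 1 library. In contact against no contact 1 gene was called by limma, SESN2, where the background was 3.73% higher and 1.82% lower. SESN2 was higher and lost its call in 6 of those 15 fits. In no contact against control, limma, edgeR and DESeq2 called none. At an unadjusted limma p under 0.05, 2 genes were lower there, where 8.39% of all genes passed that mark. In contact against no contact, 2 were higher and 2 lower at that mark, where 19.7% of all genes passed.

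The response to amino acid shortage had 28 genes tested, of which limma and edgeR called 3 higher and 3 lower in contact against control, and DESeq2 3 and 4. Over all genes limma called 7.17% higher and 5.78% lower. WARS1, the tryptophanyl-tRNA synthetase, which interferons are also known to induce, averaged 3326 ± 144.1 normalized counts in control libraries, 4812 ± 364.0 in no contact libraries and 7788 ± 1239.9 in contact libraries. It exceeded control by 1.21 in contact (limma adjusted p = 6.55e-10) and by 0.53 in no contact (limma adjusted p = 0.000474). NUPR1, a stress-induced nuclear protein, was higher by 0.80, and PCK2, the mitochondrial PEP carboxykinase, by 0.35. DDIT4, an inhibitor of mTORC1, fell by 0.85 and VLDLR by 0.87, and both lost their calls without contact libraries 97 and 108, at limma adjusted p of 0.0947 and 0.0781. ALDH1L2 was the remaining lower gene and lost its call in 8 of the 15 fits that left out 1 library. ATF4, the transcription factor that drives this response, differed by -0.07 (limma adjusted p = 0.748). In no contact against control, WARS1, NUPR1 and PCK2 were higher and no gene was lower. Over all genes, limma called 1.48% higher and 0.111% lower in that comparison. There, 7 of the 15 fits without 1 library did not call NUPR1. In contact against no contact limma called 2 higher, WARS1 and SESN2, and 1 lower, ASNS, the asparagine synthetase, where the background was 3.73% and 1.82%. ASNS lost its call in 9 of the 15 fits without 1 library. Before adjustment, at a limma p under 0.05, 5 genes of the list were higher and 7 lower in contact against control. Of all genes, 26.3% passed that mark there. The counts were 3 higher and 1 lower in no contact against control, where 8.39% of all genes passed. They were 4 higher and 6 lower in contact against no contact, where 19.7% passed.

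Of 23 genes tested that direct carriers to the membrane or control their amounts, 3 were higher and 2 lower in contact against control by limma, where the background was 7.17% and 5.78%. TBC1D1, a Rab GTPase-activating protein of GLUT4 traffic, was lower, at -0.43 (limma adjusted p = 0.00568) and kept its call in all 25 alternative fits. The other 4, TXNIP, MYC, STXBP3 and INSR, were each called in the main test and not in 5 or more of the 15 fits without 1 library. None of this list was called by limma, edgeR or DESeq2 in the other 2 comparisons. In each of these, 2 genes were higher and 2 lower at an unadjusted limma p under 0.05. Of all genes, 8.39% passed that mark in no contact against control and 19.7% in contact against no contact. In contact against control, 8 of the list were higher and 2 lower at that mark, where 26.3% of all genes passed.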

How the data were processed

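RNA of 15 cell libraries, 5 in each of 3 groups taken from the labels, was read as paired ends of 100 bases. The authors deposited normalized counts per gene, a signal that was every library's read count divided by 1 factor, and beside them their own log2 fold changes and FDR values (adjusted p-values). The submitters' processing notes name FastQC 0.71, HISAT2 2.1.0, featureCounts 1.6.2 and DESeq2 1.18.1. Genome build, annotation and strand setting were not given in the sources used here. The authors' deposited log2 fold changes were used only where named.

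Division by each library's step gave whole reads for 100% of values within 0.01, with totals of 4195091 to 19792557 reads. Counts of few reads are imprecise in the shallow libraries. Genes with at least 10 normalized counts in at least 5 libraries were kept, which left 12559 of 19994 rows, while 3511 rows were 0 everywhere. limma 3.58.1 in R 4.3.3 was fitted to log2(normalized count + 1) over all 15 libraries, with a mean-variance trend and robust variances, two-sided, with Benjamini-Hochberg adjustment over all genes tested and a threshold of 0.05. Fold changes are on that scale, which understates the change of low genes. The steps were tested on simulated data.

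The alternatives were pseudocounts of 0.5 and 5, no filter, scaling to the library total or by TMM, edgeR 4.0.16 and DESeq2 1.42.0 on the recovered reads, the library-number run as a block, a fit of 2 groups only, and fits without single libraries or without both shallow contact libraries. Members and lists were chosen with earlier results of these data known. Values per library are given for SLC2A1, SLC5A1, SLC1A5, SLC7A5, SLC3A2 and each member called, and other members by group or range. The plan for the other lists was to name up to 4 genes called by smallest p. In the 5 lists of related genes, each gene that limma called is named instead. Other members whose libraries are given (SLC7A2, SLC38A1, SLC38A2) and other genes singled out were chosen after their values were seen.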

Additional observations from a re-analysis of the deposited data

Results flagged for a closer look

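Among the 105 sets of 5 libraries formed by the 35 members tested and the 3 groups, 4 had 1 library whose gap to its neighbour took more of the group's range than Dixon's 95% limit, while chance flags about 1 in 20 sets. SLC2A3 read 499.9 normalized counts in contact library 28, the highest of its group. SLC2A9 read 100.3 in contact library 107, also the highest. SLC5A2 read 674.1 in no contact library 90, the highest of its group. SLC7A4 read 8.96 in control library 24, the lowest of its group. None of these 4 genes was called by limma in any comparison, and the causes were not tested.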

How the results depend on the processing

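No member's fold change reversed a call under any of the 25 alternative fits. Over the 2625 results of single members and fits, 2592 kept their side of the threshold, 13 calls were lost and 20 were gained. In no contact against control, the counts of 0 higher and 0 lower held in all 25 fits. In contact against control, the count of members higher was 2 in place of 1 when values were scaled to the library total and with the library-number run as a block, and 1 to 2 in fits without 1 library. The count lower was 6 in place of 3 with 2 groups only and 2 to 5 without 1 library. In contact against no contact, the count higher stayed at 1, and the count lower was 2 in place of 1 with DESeq2 and with the run as a block, 0 without both shallow contact libraries, and 0 to 3 without 1 library. The cause of these changes was not tested, and shares of all genes called are given only for the main fit, edgeR and DESeq2. Another scaling turned the sign of SLC1A1 and SLC3A2 in contact against no contact, both uncalled, and of no member in the other comparisons. Of 550 results for the genes called in the 5 lists of related genes, 448 kept their call and 102 lost it. The groups share no replicate numbers, so libraries were not paired by number, and the block was the library-number run, which holds all 3 groups except for contact library 97. Low read counts in contact libraries 97 and 108 limit SLC5A1, SLC1A7 and other low members.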
